A study of Mus musculus with 10 samples.

Results

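Potassium channel genes were followed in mouse cardiomyocytes that carried dnMKL1, a dominant-negative form of the SRF coactivator MKL1, or green fluorescent protein alone. The set was every gene of the authors' deposited table whose symbol starts with Kcn, without the antisense transcript Kcnq1ot1. There were 94 such genes, of which 81 had a base mean above 0, out of 23337 genes in the table. The base mean is the average normalized count over the libraries. All 81 are annotated as protein coding, and they fall into 21 subfamilies by symbol.

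Wild-type mice received an AAV9 vector at 5e+08 viral genomes per gram on postnatal day 1, and cells were taken on postnatal day 14. The GFP group (5 libraries) received AAV9-cTNT-GFP and the dnMKL1 group (5 libraries) AAV9-cTNT-dnMKL1-GFP, so both carried GFP. The cTNT promoter limits expression of the transgene to cardiomyocytes. Cells came from collagenase-perfused hearts and were sorted by fluorescence. Sex is not given in the labels. The table holds the comparison of the groups and no values per library. Group levels are therefore given as implied means, computed from the base mean and the deposited fold change, and the replicate error is carried by the deposited standard error (SE).

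Potassium channels carry the outward current that ends the cardiac action potential and sets the resting potential. Pore-forming subunits assemble into channels that open with voltage, with intracellular ions or at rest, and accessory subunits change their gating and their delivery to the membrane. In the mouse ventricle the fast transient outward current, carried by Kcnd pore subunits with the accessory protein Kcnip2, is a main repolarizing current, whereas in larger mammals the delayed rectifier currents have a greater part.

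Estimated library totals ran from 8803029 to 17123578 counts for GFP and from 8835136 to 17228615 for dnMKL1. In the authors' deposited table Mkl1 had a log2 fold change of 9.80 (SE 0.15), from which positive values were read as higher in dnMKL1. All 8 cardiomyocyte markers had base means of at least 10438 normalized counts, and 6 of them fell and 0 rose. Falls were common among abundant genes. Of the 2126 tested genes at 1000 normalized counts or more, 896 fell and 291 rose. Whether the markers fell more often than other genes of their level was not tested. In bulk samples, fewer cells of a type and less RNA per cell cannot be told apart. Of 50 channel genes with an adjusted p-value, 10 passed the authors' Benjamini-Hochberg adjusted Wald p of 0.05, 3 higher and 7 lower in dnMKL1. Over all 14056 genes tested, 34.1% passed, 16.6% higher and 17.4% lower, so the 20.0% of the channel genes was below that background. The median log2 fold change was 0.06 over the 50 channel genes and 0.02 over all genes tested. Where the base mean was 10 or more, 10 of 29 channel genes passed against 38.8% of all genes. The 7 with an absolute log2 fold change of at least 1 were Kcne1l, Kcnj14, Kcnn1, Kcna7, Kcnab3, Kcnd2 and Kcnip2; over all genes tested 6.70% passed with a change of that size. Where both groups were scaled to the same total count, 0.29 was added to every log2 fold change, and the channel genes that passed became 8 higher and 5 lower. Over all genes tested, 47.0% then passed, 5685 higher and 927 lower.

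Promoter sequence was read from RefSeq for GRCm38.p6, the build that corresponds to mm10 in the submitters' processing notes. Windows of 200 bases before the transcription start were present for 60 of the 81 members, 82 windows in all. Among the 10 genes that passed, Kcnab3 and Kcnj14 had no entry. Shown are the windows of called members that touch no annotated GENCODE exon, those of Kcnip2, Kcnd2 and Kcnj2, which fell, and of Kcnh2, which rose. Capitals mark the GC box GGGCGG and the CACCC box CCACCC on either strand, and no pair of these matches overlapped. Each is printed from 5′ to 3′ on the gene's own strand.
Kcnip2 chr19:45816064-45816263 (-): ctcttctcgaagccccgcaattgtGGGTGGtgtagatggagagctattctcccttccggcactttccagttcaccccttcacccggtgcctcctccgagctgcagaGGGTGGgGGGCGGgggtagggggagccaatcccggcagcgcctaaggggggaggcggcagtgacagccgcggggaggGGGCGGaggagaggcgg
Kcnd2 chr6:21215146-21215345 (+): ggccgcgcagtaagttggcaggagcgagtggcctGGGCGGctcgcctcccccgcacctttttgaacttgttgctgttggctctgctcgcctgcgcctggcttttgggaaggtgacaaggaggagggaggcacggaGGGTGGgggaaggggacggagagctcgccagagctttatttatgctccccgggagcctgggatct
Kcnj2 chr11:111065964-111066163 (+): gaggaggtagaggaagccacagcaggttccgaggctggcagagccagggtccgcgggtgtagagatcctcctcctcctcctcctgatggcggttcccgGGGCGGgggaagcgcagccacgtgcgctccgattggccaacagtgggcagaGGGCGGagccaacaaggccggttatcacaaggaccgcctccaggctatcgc
Kcnh2 chr5:24329592-24329791 (-): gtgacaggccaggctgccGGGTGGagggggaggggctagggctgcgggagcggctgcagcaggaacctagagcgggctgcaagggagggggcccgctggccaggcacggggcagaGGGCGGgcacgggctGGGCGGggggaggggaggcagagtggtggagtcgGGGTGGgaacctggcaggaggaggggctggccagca

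The Kcnh2 window lies inside the gene's annotated span, before an internal start. The window of Kcnip2 held 2 GC boxes and 2 CACCC boxes, that of Kcnd2 held 1 of each, that of Kcnj2 held 2 GC boxes and 0 CACCC boxes, and that of Kcnh2 held 2 of each. GC boxes were in 45.1% of the member windows and in 31.0% of all 32851 promoter windows of the same length, and CACCC boxes in 46.3% and 24.1%. Member windows were also richer in G and C, with a median of 59.0% against 53.0%. The CArG box, the sequence SRF is known to bind, was searched on both strands. It was found in 0 of the 82 member windows and in 1.18% of all windows, which says only that these letters are not within 200 bases of the starts.

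Genes of the transient outward current were lower in dnMKL1. Of the 4 genes on this list, which was drawn up with earlier results of these data known, 3 fell, 0 rose and Kcna4 did not pass. All 4 had base means above 100. Of the 8641 genes tested at that level in the whole table, 43.4% passed and 2153 fell. Kcnip2, at chr19:45791839-45816061 on the reverse strand of GRCm38, encodes the calcium-binding accessory subunit that raises the density of Kcnd channels at the membrane. Its implied mean was 1106 normalized counts with GFP and 234 with dnMKL1, a 4.73-fold difference. The authors' deposited table lists a log2 fold change of -2.24 for it (SE 0.24, adjusted p = 1.7e-18).

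Kcnd2, at chr6:21215503-21729805 on the forward strand, encodes the main pore subunit of the fast transient outward current. Its implied mean was 535 normalized counts in GFP and 161 in dnMKL1, with a log2 fold change of -1.73 (SE 0.21) and an adjusted p of 2.9e-15 in the authors' deposited table. Kcnd3, a second pore subunit of this current, at chr3:105452330-105674002 on the forward strand, also fell. Implied means for Kcnd3 were 139 and 90.4 normalized counts, and the authors' deposited table gives it a log2 fold change of -0.62 (SE 0.23, adjusted p = 0.0219). The 95% Wald intervals of the log2 fold changes were -2.14 to -1.33 for Kcnd2 and -1.07 to -0.17 for Kcnd3. They did not overlap, though the difference itself was not tested. Under total-count scaling Kcnd3 no longer passed, at a log2 fold change of -0.33. The Kcnd1 gene had 2 reads in the GFP libraries and 5 in the dnMKL1 libraries.

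Per kilobase of exon, the implied level of Kcnd2 was 7.15 times that of Kcnd3 in GFP and 3.31 times in dnMKL1. The level of Kcnip2 per kilobase was 2.69 times that of Kcnd2 and Kcnd3 together in GFP and 1.65 times in dnMKL1. No error can be given for these ratios, since the table does not hold how the genes vary together. Kcna4, the pore subunit of the slow transient outward current, had implied means of 123 and 118 normalized counts and a 95% interval of -0.43 to 0.31 for its log2 fold change (adjusted p = 0.862 by the Benjamini-Hochberg adjusted Wald test in the authors' deposited table). The other Kcnip genes were rarely read. Kcnip3 and Kcnip4 had base means of 2.91 and 2.47 normalized counts and did not pass, and Kcnip1 had 1 read in 10 libraries.

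**Figure D1:**
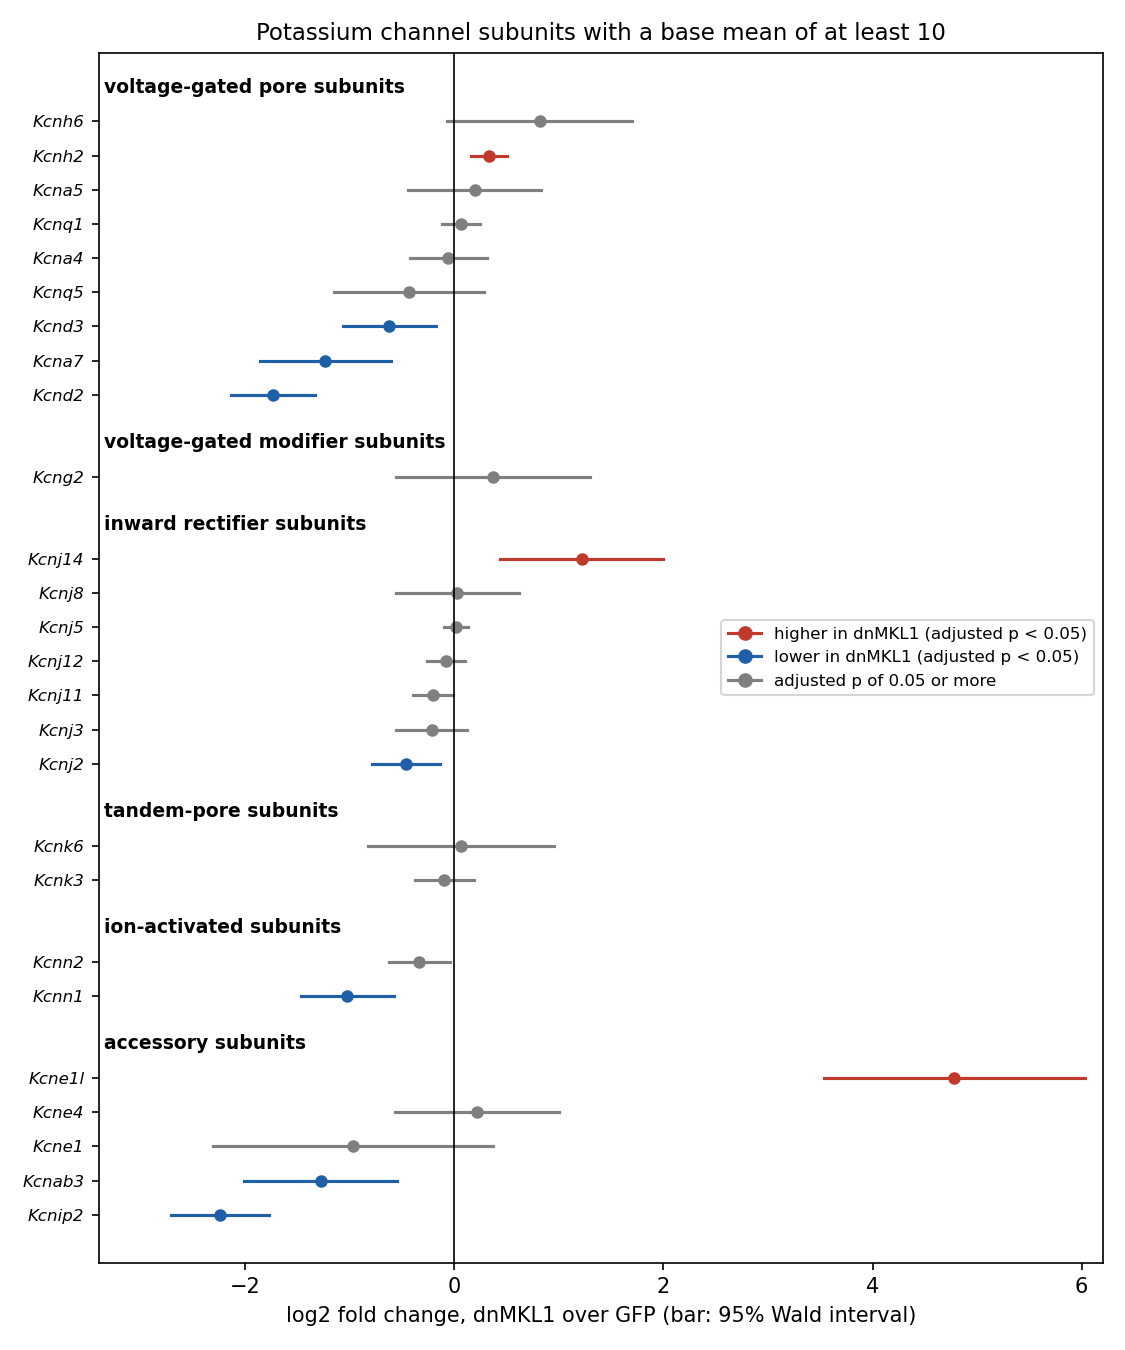
Log2 fold change, dnMKL1 over GFP (points), with 95% Wald intervals (bars), for 26 of the 29 channel subunits with a base mean of at least 10, ordered by role. Kcnip2, Kcnd2, Kcna7, Kcnab3 and Kcnn1 lie below -1, and Kcne1l stands alone at 4.78.

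On the delayed rectifier lists, Kcnh2 rose, Kcnq1, Kcna5 and Kcne1 did not pass, and Kcne2 had no adjusted p. Kcnh2, at chr5:24319589-24351604 on the reverse strand, encodes the pore subunit of the rapid delayed rectifier. It rose from an implied mean of 2131 to 2686 normalized counts, with a log2 fold change of 0.33 (SE 0.09, adjusted p = 8.7e-04) in the authors' deposited table. Kcnq1, the pore subunit of the slow delayed rectifier, had implied means of 942 and 982 and an interval of -0.12 to 0.24. It did not pass (adjusted p = 0.688 in the authors' deposited table), but passed as higher, at 0.35, under total-count scaling. The gene span of Kcnq1 overlaps that of Kcnq1ot1, which lies on the opposite strand with a base mean of 152 normalized counts. Whether their exons overlap was not examined. The library kit does not mark strand, so reads from any shared exon could not be told apart. The log2 fold change of Kcnq1ot1 was 0.37 (SE 0.21, adjusted p = 0.161).

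Kcna5, for the ultrarapid delayed rectifier, had implied means of 62.4 in GFP and 71.3 in dnMKL1 (interval -0.45 to 0.83, adjusted p = 0.721 in the authors' deposited table) and did not pass. Kcna7, a voltage-gated subunit of skeletal muscle and heart, lies at chr7:45405653-45409763 on the forward strand. It fell from an implied mean of 36.0 to 15.3 normalized counts, a log2 fold change of -1.24 (SE 0.32, adjusted p = 6.5e-04) in the authors' deposited table. Over the 18 tested voltage-gated pore genes, 1 rose and 3 fell, with a median log2 fold change of 0.00043. Kcnh6 and Kcnq5 also had base means above 10 and did not pass.

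The accessory Kcne subunits, small proteins that span the membrane once and modify voltage-gated pores, held the largest rise among the channel genes. Kcne1l, at chrX:142304752-142306294 on the reverse strand, went from an implied mean of 13.5 normalized counts in GFP to 371 in dnMKL1. The authors' deposited table lists 4.78 as its log2 fold change (SE 0.64, adjusted p = 2.6e-12), a 27.5-fold difference with an interval of 3.53 to 6.03 on the log2 scale. Among the channel genes, Kcne1l ranked 21 by level per kilobase in GFP and 6 in dnMKL1.

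Kcne1, the accessory subunit of the slow delayed rectifier, was abundant and did not pass. Its implied means were 2752 normalized counts in GFP and 1403 in dnMKL1, a log2 fold change of -0.97 with an SE of 0.68 and an interval of -2.31 to 0.37 (adjusted p = 0.294 in the authors' deposited table). Per kilobase, the level of Kcne1l was 0.0102 times that of Kcne1 in GFP and 0.550 times in dnMKL1. Kcne3 and Kcne4 did not pass, with base means of 2.57 and 10.3 normalized counts. Kcne2, known as a partner of Kcnh2, had 2 reads in the GFP libraries and 0 in the dnMKL1 libraries. Kcnab3, at chr11:69326258-69333042 on the forward strand, encodes a cytoplasmic beta subunit of Kcna channels. It fell from 21.2 to 8.72 normalized counts, with a log2 fold change of -1.28 (SE 0.37, adjusted p = 0.00297) in the authors' deposited table. Of 11 tested accessory genes, 1 rose and 2 fell.

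**Figure D2:**
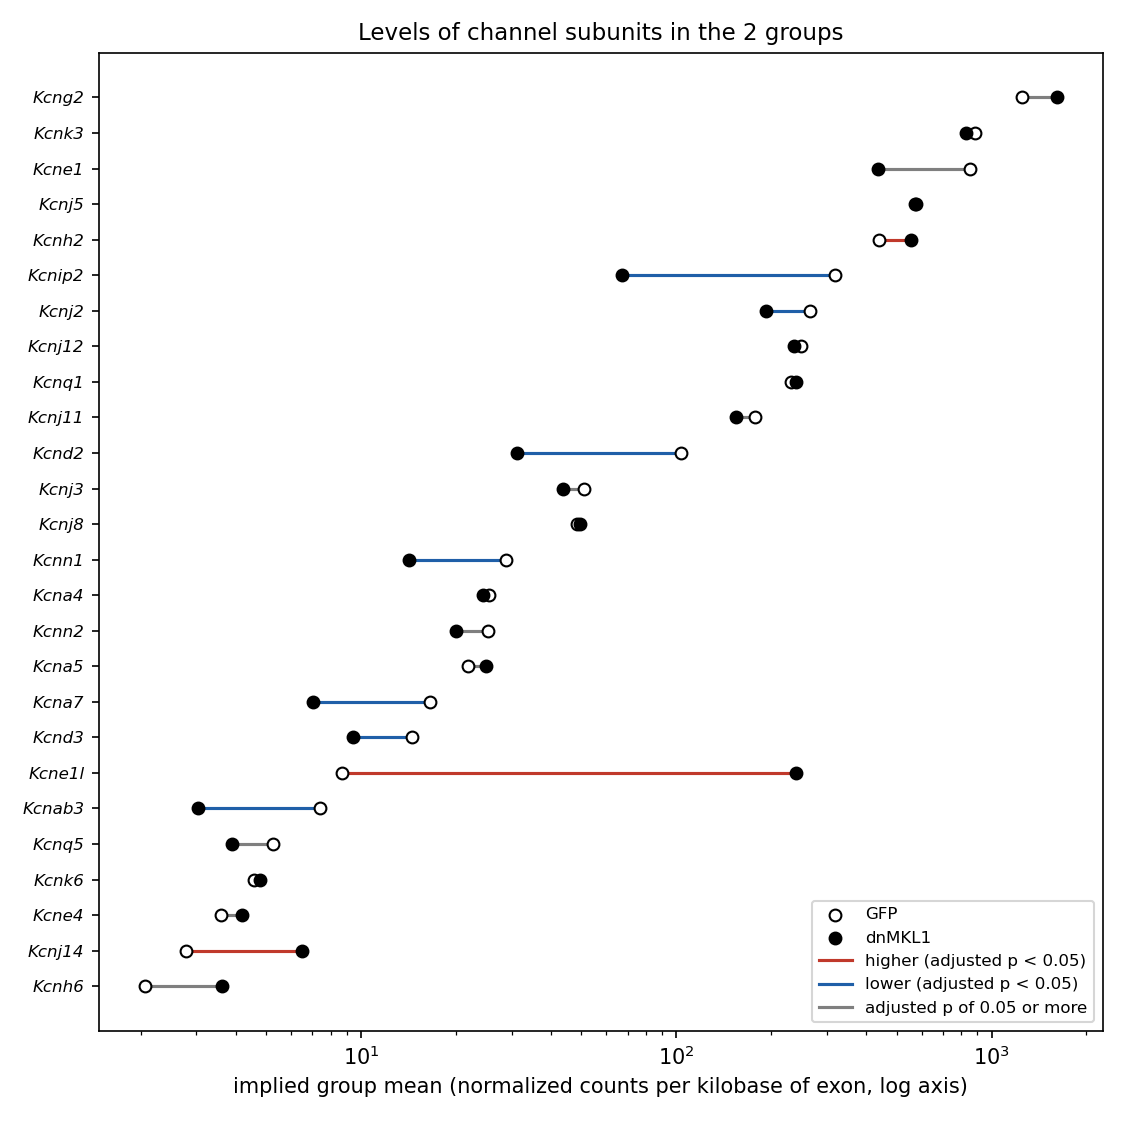
Implied group means per kilobase of exon (log axis) for 26 of the 29 subunits with a base mean of at least 10, ordered by level in GFP (open circles, GFP; filled circles, dnMKL1). Kcng2 is highest in both groups, and Kcne1l moves from 8.72 to 240 normalized counts per kilobase.

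Inward rectifiers include the channels that hold the resting potential. Kcnj5, Kcnj2, Kcnj12 and Kcnj11 were among the most abundant channel genes, while some other inward rectifier genes were rarely read. Of 10 tested members, 1 rose and 1 fell. Kcnj2, the main subunit of the classical inward rectifier current, lies at chr11:111066164-111076821 on the forward strand. It fell from an implied mean of 1446 to 1047 normalized counts, with a log2 fold change of -0.47 (SE 0.17, adjusted p = 0.0180) in the authors' deposited table. It did not pass under total-count scaling, at -0.18. Kcnj12, the partner subunit, had implied means of 685 and 648 and an interval of -0.26 to 0.10 (adjusted p = 0.560 in the authors' deposited table). Per kilobase, Kcnj2 was 1.07 times the level of Kcnj12 in GFP and 0.816 times in dnMKL1.

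Kcnj14, another inward rectifier, at chr7:45816460-45824782 on the reverse strand, rose from 7.57 to 17.6 normalized counts. Its log2 fold change was 1.22 (SE 0.40, adjusted p = 0.00871) in the authors' deposited table, at the lowest level of the 10 genes that passed. The Kcnj4 gene, also of this list, had 6 reads in GFP libraries and 11 in dnMKL1 libraries. Kcnj5 and Kcnj3, which form the acetylcholine-gated channel, did not pass. Kcnj5 had implied means of 2677 and 2702 and an interval of -0.10 to 0.13. Its SE of 0.06 was exceeded by 1888 of the 1988 genes whose base means lay between 1000 and 10000. Kcnj3 had implied means of 265 and 228 and an interval of -0.56 to 0.13. The channel these subunits form is known to be more abundant in atria. Of 8 atrial markers, 0 were at 0 and 7 had an adjusted p, of which 2 rose (Gja5 and Stard10) and 0 fell. That was 28.6%, against 34.1% of all genes tested. The summed implied means of the 8 markers were 2935 normalized counts in GFP and 9163 in dnMKL1. Most of that sum was Nppa (1935 and 7359), for which the authors' deposited table lists no p-value. Its SE was 0.60, and without values per library it is not known whether few libraries carry its higher mean. The other 7 summed to 999.5 and 1804, and Nr2f2 and Bmp10 had slightly lower means in dnMKL1. Their part in these values was not tested.

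The ATP-sensitive channel joins a Kcnj pore to a regulatory subunit encoded by Abcc8 or Abcc9, which opens and closes it with the energy state of the cell. The pore genes did not pass. Kcnj11 had implied means of 653 and 566 normalized counts and an adjusted p of 0.0965 in the authors' deposited table. Its interval was -0.40 to -0.01. Kcnj8 had implied means of 123 and 126 and an interval of -0.56 to 0.62. The regulatory subunits gave values of opposite sign. Abcc8 fell from 1622 to 919, with a log2 fold change of -0.82 (SE 0.10, adjusted p = 1.3e-15) in the authors' deposited table. Abcc9 had implied means of 6332 and 7773 and did not pass, with an interval of -0.01 to 0.60 (adjusted p = 0.132 in the authors' deposited table), but passed as higher, at 0.58, under total-count scaling. Per kilobase, Abcc9 was 3.77 times the level of Abcc8 in GFP and 8.17 times in dnMKL1. Kcnj8 and Abcc9 are also expressed by mural cells of vessels. Of 8 mural markers, 3 rose, 2 fell and 0 were at 0, and their summed implied means were 42345 in GFP and 33406 in dnMKL1. Des and Acta2, which heart muscle cells also express, fell and made up most of that sum. The other 6 all had higher means in dnMKL1, Cspg4, Myh11 and Tagln having risen, and their sum was 1345 in GFP and 3050 in dnMKL1. Most of that gain was Cspg4 (501 and 2019). Pdgfrb, Rgs5 and Notch3 did not pass, and the log2 fold change of Rgs5 was 0.01. The part of mural cells in the values of Kcnj8 and Abcc9 was not tested.

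Tandem-pore subunits, which carry background leak currents, were represented mainly by Kcnk3. The gene span of Kcnk3 overlaps that of Gm9899, which lies on the opposite strand with a base mean of 149. The implied means of Kcnk3 were 3517 and 3287 normalized counts, with an interval of -0.38 to 0.18 for the log2 fold change (adjusted p = 0.674 in the authors' deposited table). Of 3 tested tandem-pore genes 0 passed by the authors' adjusted Wald p, and 0 of the 9 above 0 had an unadjusted p under 0.05. Kcnk6 had implied means of 19.0 and 19.9, and Kcnk1 had 3 reads, all in GFP libraries. Among the small-conductance calcium-activated subunits, Kcnn1, at chr8:70842049-70863258 on the reverse strand, fell from 132 to 65.0 normalized counts. Its log2 fold change was -1.02 (SE 0.23, adjusted p = 5.1e-05) in the authors' deposited table. Kcnn2 had implied means of 189 and 150 and an interval of -0.63 to -0.04, and its adjusted p was 0.0682. Kcnn3 had implied means of 0.589 and 2.21 and the large-conductance pore gene Kcnma1 had 1.11 and 2.21, and neither passed.

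**Figure D3:**
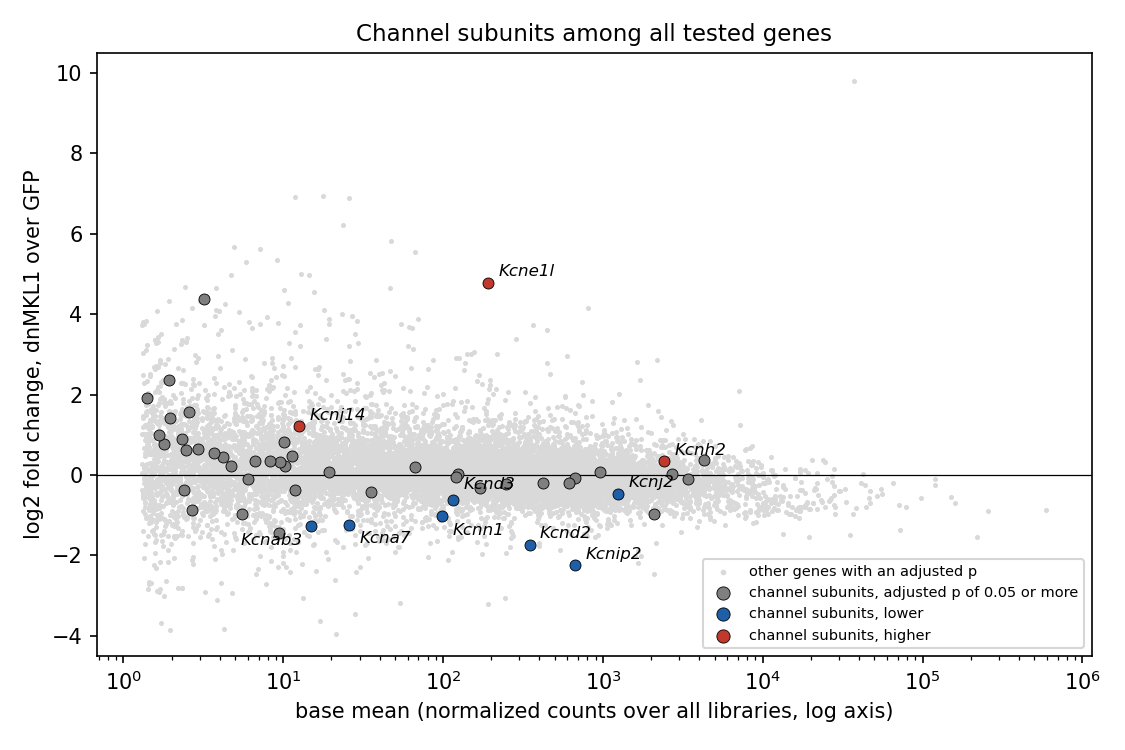
Log2 fold change, dnMKL1 over GFP, against base mean (log axis) for the 14056 genes with an adjusted p (grey) and the 50 channel subunits among them (dark grey, not passed; blue, lower; red, higher). The 10 subunits that passed are named and all have base means above 10.

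Modifier subunits do not form channels alone and tune voltage-gated channels when joined to their pores. Kcng2 had the highest level per kilobase of all channel genes, with implied means of 1248 normalized counts per kilobase in GFP and 1611 in dnMKL1. It did not pass, with a log2 fold change of 0.37 (SE 0.47, adjusted p = 0.617 in the authors' deposited table) and an interval of -0.56 to 1.29. Kcnv2 had implied means of 13.7 and 5.06 and an adjusted p of 0.0565. After Kcng2, the most abundant per kilobase in GFP were Kcnk3 (885), Kcne1 (856), Kcnj5 (571), Kcnh2 (440) and Kcnip2 (318, all in normalized counts per kilobase). Whether neighbours in this order differ was not tested. In dnMKL1 libraries Kcnip2 ranked 11, Kcnd2 moved from rank 11 to 15, and Kcnk3 stayed at rank 2.

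The SEs of Kcne1 and Kcng2 were large for their level. The SE reflects spread between libraries together with counting error. Its median was 0.0958 over the 1988 genes between 1000 and 10000 normalized counts. Only 2 of those genes had a larger SE than Kcne1 (0.68), and 11 had a larger SE than Kcng2 (0.47). Of the 6516 genes between 100 and 1000 normalized counts, 39 had a larger SE than Kcne1l. Without values per library, it is not known which libraries were high or low for these genes.

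**Figure D4:**
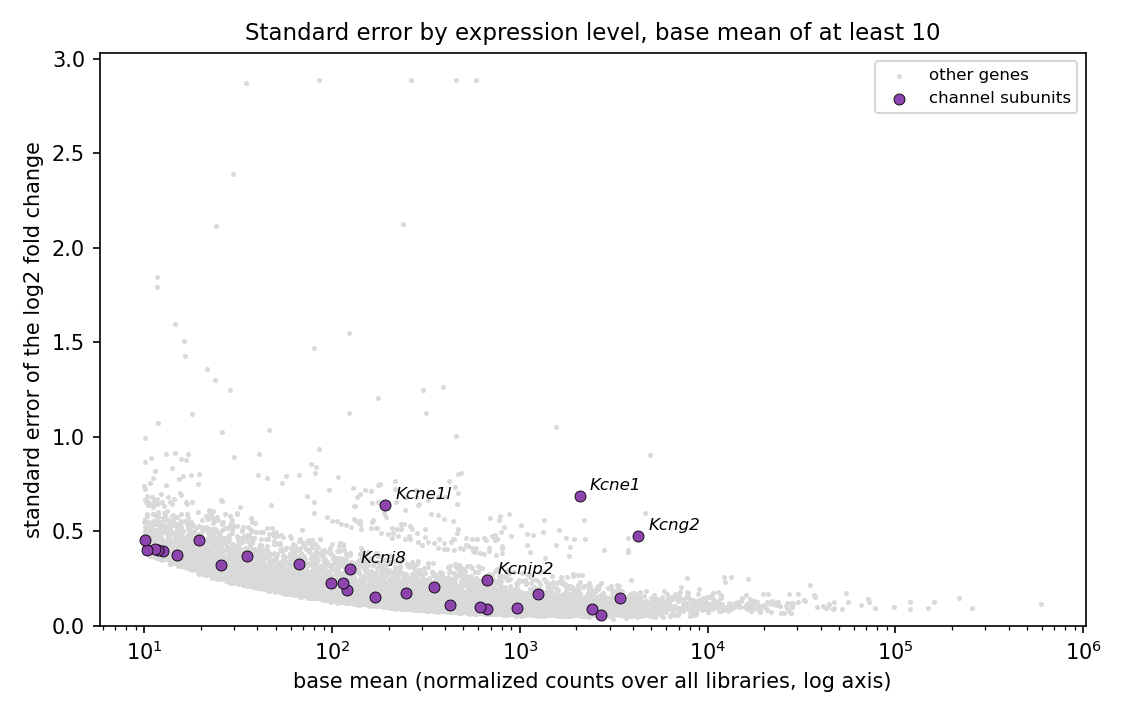
Standard error of the log2 fold change against base mean (log axis) for genes at or above a base mean of 10, with the 29 channel subunits in purple. Kcne1, Kcng2 and Kcne1l lie above most genes of like level, and Kcnj5 lies at the lower edge.

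Of the 40 tested channel genes that did not pass, 21 had a base mean under 10 and a median SE of 0.85. For 7 genes the 95% interval lay within 0.5 of 0 on the log2 scale, among them Kcnk3, Kcnj5, Kcnq1, Kcnj12, Kcnj11 and Kcna4. For the other 33, a change of 0.5 in at least 1 direction lay inside the interval. Of these, 21 had a base mean under 10, while Kcng2 and Kcne1 were abundant with SEs that were large for their level. Of the 21 tested members with a base mean under 10, 0 passed by the authors' adjusted Wald p, whereas 172 of the 2142 tested genes of that level in the whole table did (8.03%). Their median log2 fold change was 0.54, against 0.23 over all genes of that level. Including those with no adjusted p, 3 of the 52 had an unadjusted p under 0.05 (5.77%): Kcnmb4, Kcnv2 and Kcnb2. Over all genes of that level the share was 5.95%, close to that of the channel genes.

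For 34 of the 47 members with a base mean under 6, the number of reads in each library could be inferred. For them a unique set of whole reads, within the range of counts searched, gave the base mean at the estimated size factors. These members had up to 45 reads in 10 libraries. From the smallest size factor to the largest, Kcnb2, a delayed rectifier pore, had 0, 1, 0, 1 and 1 reads in the GFP libraries and 4, 2, 3, 6 and 2 in the dnMKL1 libraries. Divided by the size factors, these reads ran from 0 to 1.51 in GFP and from 1.27 to 4.94 in dnMKL1. The ranges of Kcnb2 overlapped, and its adjusted p was 0.0788 in the authors' deposited table. Kcnmb4, an accessory subunit of the large-conductance channel, had 0 reads in all 5 GFP libraries and 2, 1, 1, 4 and 4 in the dnMKL1 libraries. Its groups did not overlap, its unadjusted p in the authors' deposited table was 0.0141 and it had no adjusted p. How many of all genes at this level have groups that do not overlap was not counted. Kcnb2 and Kcnmb4 are named here after their values were seen.

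Other rarely read members rested on few libraries. Kcnk2, a stretch-sensitive tandem-pore subunit, had 1, 0, 0, 7 and 0 reads in GFP and 1, 0, 2, 3 and 0 in dnMKL1, so that most GFP reads came from 1 library. Kcnt2 had 0, 2, 2, 3 and 1 reads in GFP and 4, 1, 1, 9 and 2 in dnMKL1, and its ranges overlapped. For 12 of the 34 members the reads came from 1 or 2 libraries, and 13 had reads in 1 group only, 7 in dnMKL1 and 6 in GFP. A count of 0 allows up to 3 reads over the 5 libraries of a group, a mean of 0.612 normalized counts in GFP and 0.539 in dnMKL1, which covers counting error only. The 13 genes at 0 in all libraries were Kcna10, Kcnh5, Kcnj9, Kcnj16, Kcnk9, Kcnk12, Kcnk15, Kcnk16, Kcnk18, Kcnq3, Kcns1, Kcns2 and Kcnv1.

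**Figure D5:**
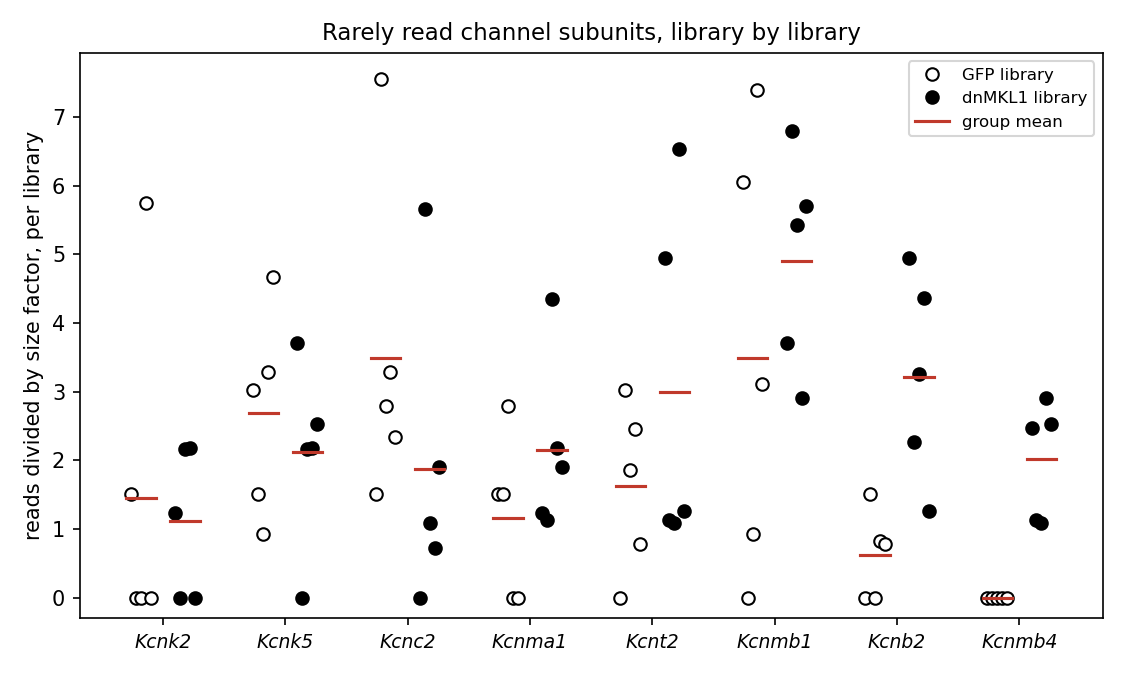
Reads divided by size factor in each library (open circles, GFP; filled circles, dnMKL1; red lines, group means) for 8 rarely read channel subunits. Kcnmb4 is at 0 in all 5 GFP libraries and between 1.09 and 2.90 in the dnMKL1 libraries, while the groups overlap for the other 7.

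Partners of potassium channels outside the family were read from a list of 14 genes, of which Dpp6, Dpp10 and Lrrc26 were at 0. Dpp6 and Dpp10 encode membrane partners of Kcnd channels in neurons. Of the 11 with an adjusted p, 27.3% passed, below the 34.1% of all genes tested. Their median log2 fold change was -0.18, and 0 rose and 3 fell. Besides Abcc8, these were Cav3, the muscle caveolin, at -0.42 (SE 0.11, adjusted p = 8.5e-04), and Lrrc52, an accessory gene of large-conductance channels, at -0.99 (SE 0.41, adjusted p = 0.0479), by the adjusted Wald test of the authors' deposited table. Lrrc52 did not pass when all p-values of the table were adjusted together, and neither gene passed under total-count scaling. Dlg1, Akap9 and Nedd4l, which anchor channels or mark them for removal, did not pass, with log2 fold changes from -0.09 to 0.10. Under total-count scaling Dlg1 and Nedd4l passed as higher, at 0.39 and 0.33. Lrrc38 and Lrrc55 did not pass either, at -0.37 and -0.05.

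Of 9 transcription factors known to act on channel genes, 3 rose and 1 fell, with a median log2 fold change of 0.21. These calls made up 44.4% of the list, whose base means ran from 53.8 to 789. Over the whole table, 38.8% of tested genes passed at base means from 10 upward, and 43.4% from 100 upward. The share of the list was therefore close to that background. Irx5, known as a repressor of Kcnd2 in the mouse ventricle, rose from an implied mean of 235 to 413 normalized counts, a log2 fold change of 0.81 (SE 0.15, adjusted p = 7.1e-07) in the authors' deposited table. Irx3, a factor of the conduction system, rose from 360 to 647, a log2 fold change of 0.84 (SE 0.16, adjusted p = 3.1e-06) by the same Wald test. Etv1, a factor of fast-conducting heart muscle, rose from 161 to 293, by 0.87 on the log2 scale (SE 0.19, adjusted p = 5.2e-05 in that table). Irx4, a ventricular factor, fell from 874 to 704, with a log2 fold change of -0.31 (SE 0.08, adjusted p = 3.4e-04), and no longer passed under total-count scaling, at -0.02. Klf15, known to drive Kcnip2, had implied means of 662 and 586 and an interval of -0.54 to 0.19 and did not pass. Hey2, Tbx5, Nfatc3 and Foxo1 did not pass, with log2 fold changes from -0.10 to 0.25, though Foxo1 passed as higher, at 0.50, under total-count scaling. Whether these factors and the channel genes vary together across libraries was not tested.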

How the data were processed

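Counts per gene were made from RNA of sorted cardiomyocytes by full-length cDNA synthesis (10 ng of RNA, 8 PCR cycles, per the labels' protocols) with STAR 2.5.3a and featureCounts from Subread 1.5.2 on mm10, per the submitters' processing notes. Which annotation was counted, and whether by strand, is not given in the sources used here. The authors' deposited table has the columns of a DESeq2 result, per the file headers. Its base mean is a signal in normalized counts, its fold change and SE are deposited on the log2 scale, and its deposited test statistic is a score, their ratio (largest gap 1.14e-05). The deposited p-value and adjusted p-value were recomputed with largest gaps of 2.74e-07 and 1.44e-07. The adjustment covered 14056 genes, down to a base mean of 1.31.

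Calls are the authors' adjusted p under 0.05. Implied means assume that the base mean averages the group means with equal weight. Intervals are 95% Wald intervals. Nothing in the labels says that replicates shared litters or batches. The series' design text calls them biological replicates. Each p-value sets a fold change against its SE, which reflects the spread between the replicates together with counting error. Levels per kilobase use the union of GENCODE M21 exons on GRCm38, and coordinates are from the same annotation. Size factors came from genes with 1 read in 1 library, and library totals were estimated from them. Reads per library were kept where a unique set of whole reads gave the base mean as printed. For the 21 such members with reads in both groups, the deposited fold change had the sign of the ratio of means in 21, with a median gap of 0.08 and a largest gap of 0.92 on the log2 scale. Without molecular identifiers, reads are not independent molecules. The scripts were tested on simulated data (Python 3.11.15, scipy 1.17.1).

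Named were all members past the threshold with an absolute log2 fold change of at least 1, lists of cardiac currents, and lists of partners and regulators. Members and lists were chosen with earlier results of these data known. The markers read were those of cardiomyocytes, atria, endothelium, fibroblasts, mural cells, macrophages, and glia and neurons. Of 8 endothelial markers 0 rose and 0 fell, and of 8 fibroblast markers 3 rose and 0 fell. Of 7 macrophage markers found under their symbol (of 8 listed) 1 rose and 0 fell. Of 8 glial and neuronal markers 4 had an adjusted p, and 1 rose and 1 fell. Some genes of these lists enter the counts and are not reported here one by one.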

Additional observations from a re-analysis of the deposited data

How the results depend on the processing

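The count of 10 channel genes stayed within 1.5 times under all but 1 of the other thresholds, scalings and filters tried. It ran from 7 at an absolute log2 fold change of at least 1 to 14 at an adjusted p under 0.1. The exception was a base mean of at least 100, which left 6 (2 higher, 4 lower) because fewer genes can pass. These were 33.3% of the 18 channel genes tested at that level, against 43.4% of all genes. Under total-count scaling 13 passed. Of these, 8 were among the 10, the 2 lost were Kcnd3 and Kcnj2, and Kcnb2, Kcnh6, Kcnj12, Kcnj5 and Kcnq1 were added, so that the share of higher calls went from 30% to 61.5%, while over all genes it went from 48.8% to 86.0%. That scaling adds 0.29 to every gene and reversed the sign of 10 named genes. They were Akap9 (0.20), Kcna4 (0.23), Kcnj11 (0.083), Kcnj12 (0.21), Kcnj3 (0.070), Kcnk3 (0.19), Klf15 (0.11), Lrrc55 (0.24), Nfatc3 (0.19) and Tbx5 (0.27). Kcnip2, Kcnd2, Kcne1l, Kcnn1, Kcna7, Kcnab3, Kcnj14 and Kcnh2 kept their call under both scalings and at an adjusted p under 0.01. No paired analysis was possible because the table holds no values per library, and for the same reason no fit without 1 library was run. Whether 1 library decides a value is unknown for members above the lowest levels.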
